A study of Homo sapiens with 38 samples.

Results

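Chromosome 19 carries most of its zinc finger genes in a few dense clusters, and these genes were followed through nuclear and cytoplasmic RNA of cells that lack Argonaute (AGO) proteins. The 246 genes described here are the protein-coding genes of human chromosome 19 whose GENCODE release 44 symbol is ZNF followed by a number, out of 58425 genes with a transcript in the deposited tables. A symbol with a letter after the number was kept (6 genes, such as ZNF780A), and 3 readthrough genes that join a pair of neighbours (ZNF559-ZNF177, ZNF625-ZNF20 and ZNF816-ZNF321P) were left out. RNA-seq was performed on HCT116 cells, a human colorectal carcinoma line. There were 5 genotypes: wild type and lines edited with CRISPR to lack AGO1, AGO2, AGO1 and AGO2 (AGO1/2), or AGO1, AGO2 and AGO3 (AGO1/2/3), and nuclear and cytoplasmic RNA was sequenced from each. Each of the 10 groups held 3 libraries, labelled P27 to P29 in the wild-type cells and between P6 and P14 in the knockout lines. The number after P is read here as the passage, which the paper does not spell out. Each genotype was 1 line, so genotype, line and passage cannot be told apart. The p-values measure the spread between passages of a line.

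Most of these genes encode C2H2 zinc finger proteins of the KRAB family. Their fingers bind DNA, often within transposable elements, and the KRAB domain of most of them recruits the corepressor TRIM28 (KAP1), which brings in the histone methyltransferase SETDB1 and heterochromatin proteins. The family grew by repeated local duplication, so that neighbouring genes have similar coding sequences built from near-identical finger units. AGO proteins carry microRNAs (miRNAs) to RNA that matches the miRNA seed, bases 2 to 8 counted from its 5′ end, and usually lower the level or the translation of that RNA in the cytoplasm.

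Library depth ranged from 20431557 to 54097984 estimated reads in nuclear RNA and from 39476205 to 79731793 in cytoplasmic RNA, and wild-type libraries were the shallowest of both fractions. The epithelial markers KRT8, KRT18, KRT19 and EPCAM were abundant, whereas VIL1 and LGR5 were under 0.1 TPM in every library, and the summed immune and endothelial markers reached 0.201 and 0.182 TPM at most. Summed fibroblast markers reached 6.36 TPM, mostly COL1A1 (up to 6.21 TPM). Summed neuronal markers were 2.04 to 2.33 TPM in wild-type nuclei. They were 1.19 to 1.36 TPM in AGO1 knockout nuclei and 0.524 to 0.786 TPM in those of the lines that lack AGO2. AGO1 mRNA fell in the lines that lack AGO1, with nuclear log2 fold changes of -1.25, -1.90 and -1.70. AGO2 mRNA was lower in AGO2 knockout cells (-0.47 nuclear, -0.67 cytoplasmic) but rose by 0.31 in the cytoplasm of the AGO1/2 line, so the mRNA level does not check the AGO2 label of each line. Nor does it check the AGO3 label: in the AGO1/2/3 line AGO3 mRNA rose by 0.34 in the cytoplasm and was -0.30 in the nucleus, against -0.35 in AGO1 and -0.28 in AGO1/2 knockout nuclei. MALAT1, a transcript retained in the nucleus, was at 2687 to 3486 TPM in nuclear wild-type RNA, at 1200 to 1477 TPM in nuclear AGO1/2/3 knockout RNA and at 79.9 to 141 TPM in cytoplasmic wild-type RNA. Nuclear KRT8 went from 481 to 526 TPM in wild type to 1170 to 1265 TPM in the AGO1/2 and 900.4 to 1069 TPM in the AGO1/2/3 line. Cytoplasmic KRT8 was 419 to 484 TPM in wild type, 299 to 361 TPM in AGO1/2 and 412 to 528 TPM in AGO1/2/3. EPCAM was lower than wild type in these lines in each fraction. Nuclear CDH1, which encodes E-cadherin, went from 16.4 to 29.8 TPM to 3.23 to 5.34 and 4.93 to 6.20 TPM in these lines. These differences move with the groups, and their part in the ZNF results was not tested.

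Along the chromosome, 238 of the 246 genes fell into 10 clusters, defined as runs of at least 3 such genes with less than 1 Mb between neighbours, and 8 stood alone. Coordinates are those of GENCODE release 44 on GRCh38 (hg38), the build to which the reads were aligned. Cluster 10 at the end of the long arm was the largest (59 genes, 55476617 to 58481230), followed by cluster 9 (39 genes, 51571283 to 53580269) and cluster 4 beside the centromere (37 genes, 19668796 to 24129968). Clusters 2 (15 genes, 7069703 to 9793180), 3 (25 genes, 11483427 to 12640098), 6 (26 genes, 36182276 to 37817300) and 8 (24 genes, 43525497 to 45076478) were of intermediate size. Clusters 1 (2819868 to 2944971) and 5 (34677639 to 34964229) held 5 genes each and cluster 7 (39984134 to 40090943) held 3. The plus strand carried 133 of the genes and the minus strand 113.

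The coding sequences showed the repeated structure of the family. A median of 12 C2H2 fingers was found per gene (range 1 to 36), and 237 of the 246 had at least 5. The median GC content of the annotation's canonical transcript was 42.3%, against 49.3% over other protein-coding genes, with a range from 33.2% to 70.9%. Because fingers repeat, a seed match that lies in the finger unit recurs many times in 1 gene. The 4 miRNAs below were taken from RefSeq on GRCh38.p14. Matches to the seeds of miR-181a and miR-23a recur in these coding sequences, whereas let-7a and miR-17 are abundant families in many cell types whose seeds seldom match there. Matches were counted over the whole coding sequence and were not placed relative to the fingers. Capitals mark the seed, and the coordinates are those of the mature sequence.
miR-181a-5p (MIR181A1, chr1:198859108-198859130, minus strand): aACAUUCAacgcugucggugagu
miR-23a-3p (MIR23A, chr19:13836595-13836615, minus strand): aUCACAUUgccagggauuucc
let-7a-5p (MIRLET7A2, chr11:122146568-122146589, minus strand): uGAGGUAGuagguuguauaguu
miR-17-5p (MIR17, chr13:91350618-91350640, plus strand): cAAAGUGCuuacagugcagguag
The match to the miR-181a seed, TGAATGT on the coding strand, was present in the coding sequence of 175 of the 246 genes (71.1%) and at least 3 times in 142 (57.7%), against 11.7% and 0.869% of other protein-coding genes. ZNF780B held 16 matches. Among the 262 ZNF genes on other chromosomes, 50.8% held a match and 28.2% at least 3, so the motif is shared by ZNF genes elsewhere. The match to the miR-23a seed, AATGTGA, was present in 141 genes (57.3%), with 35 in ZNF208. It was present in 13.7% of other coding genes and in 46.2% of ZNF genes on other chromosomes. The end of the miR-181a motif and the start of the miR-23a motif share letters, so 1 stretch can hold both. For let-7a (CTACCTC) the share was 6.50% against 13.2%, and for miR-17 (GCACTTT) 3.25% against 8.66%. A seed match is a description of the sequence and no evidence of binding. Such repeats also limit how reads can be divided: 41 of the 246 genes shared more than 10% of their transcript stretches of 75 bases with another gene, and 8 shared more than 50%, so the levels of those genes are uncertain.

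In wild-type nuclear RNA, 148 of the 246 genes (60.2%) averaged at least 1 TPM (the share of a library's transcripts scaled to a fixed total, corrected for transcript length), close to the 58.5% of all protein-coding genes and below the 78.2% of the 262 ZNF genes on other chromosomes. The level was modest, with a median of 5.24 TPM among the genes at or above 1 TPM, against 11.4 TPM for coding genes in general and 7.14 TPM for ZNF genes elsewhere. At the other end, 81 genes averaged under 0.1 TPM. ZNF121, in cluster 2 (9560329 to 9584504, minus strand), was the most abundant with 96.0, 96.1 and 70.1 TPM in the 3 nuclear wild-type libraries. ZNF146 in cluster 6, which encodes a protein made almost wholly of zinc fingers, had 63.2, 59.6 and 47.1 TPM, below ZNF121 in each library. Behind them came ZNF460 (mean 36.6 TPM) and ZNF544 (28.2 TPM) of cluster 10, ZNF83 of cluster 9 (25.3 TPM), ZNF562 of cluster 2 (23.6 TPM), ZNF587 of cluster 10 (22.3 TPM) and ZNF561 of cluster 2 (21.3 TPM). For ZNF83, only 23.1% of the nuclear wild-type reads were assigned to transcripts annotated as coding. The leading gene of the remaining clusters was ZNF57 in cluster 1 (5.49 TPM), ZNF791 in cluster 3 (11.4 TPM), ZNF714 in cluster 4 (19.3 TPM), ZNF302 in cluster 5 (8.41 TPM), ZNF780A in cluster 7 (11.5 TPM) and ZNF227 in cluster 8 (12.2 TPM).

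Clusters differed in how many of their genes were in use. In cluster 2, 86.7% of the genes reached 1 TPM in nuclear wild-type RNA, and in cluster 8 70.8%, cluster 10 66.1% and cluster 9 64.1% did. Cluster 3 (48.0%) and cluster 6 (46.2%) were lower, and in cluster 4 beside the centromere 37.8% reached this level and the median gene was listed at 0 TPM. These shares rest on levels in 3 libraries of 1 line and were not tested against each other.

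The levels of all 246 genes were summed per library to ask how much RNA the family contributed. Nuclear wild-type libraries held 1121 ± 126 TPM (SD, n = 3) with a range of 976 to 1201, the lowest at passage 29. The sum was 971 ± 89.6 TPM in AGO1, 813 ± 43.8 in AGO2, 872 ± 30.5 in AGO1/2 and 760 ± 23.1 in AGO1/2/3 knockout nuclei (n = 3 each), or 86.6%, 72.5%, 77.8% and 67.8% of wild type. All libraries of the AGO2, AGO1/2 and AGO1/2/3 lines lay below all 3 wild-type libraries, and those of the AGO1 line overlapped them. In the cytoplasm the wild-type sum was 649 ± 44.1 TPM (n = 3), and the lines held 91.7%, 76.5%, 63.4% and 69.6% of it in the same order. ZNF genes on other chromosomes summed to 70.1% (nucleus) and 75.6% (cytoplasm) of wild type in the AGO1/2/3 line. TPM is a share of each library, and bulk RNA cannot tell less RNA per cell from fewer cells that make it. As a share of reads, the 246 genes took 0.395% to 0.445% in nuclear wild-type libraries and 0.274% to 0.285% in nuclear AGO1/2/3 knockout libraries. When reads were summed with edgeR's library scaling in place of TPM, the fall was smaller (log2 ratio -0.34 against -0.56 in nuclear AGO1/2/3 knockout RNA), and the small difference of the AGO1 line turned to 0.03 from -0.21.

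**Figure D1:**
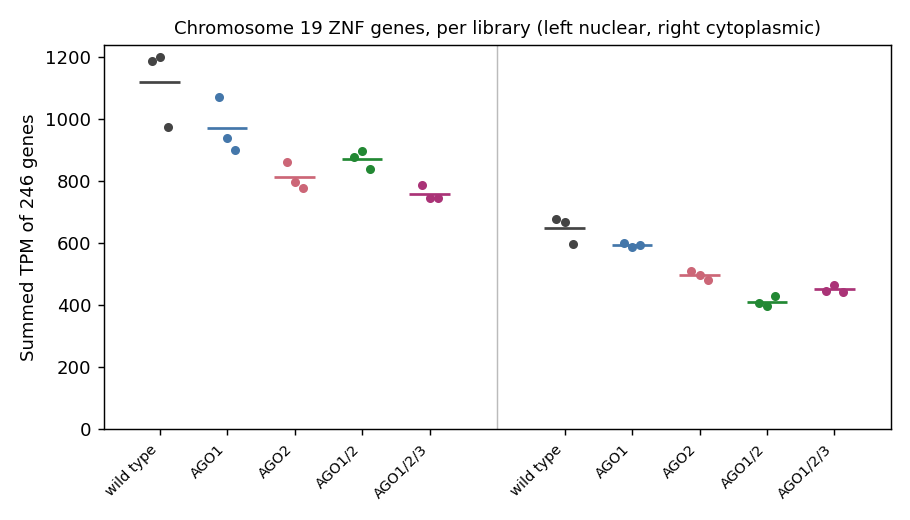
Summed TPM of the 246 chromosome 19 ZNF genes in each library (points), with a line at the mean of the 3 libraries of a group, for 5 genotypes in nuclear and cytoplasmic RNA. The nuclear wild-type libraries lie between 976 and 1201 TPM and the nuclear AGO1/2/3 knockout libraries between 747 and 787 TPM.

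Each knockout was compared with wild type gene by gene with edgeR's quasi-likelihood test on estimated reads, fitted over all genes of a fraction, and genes with a Benjamini-Hochberg adjusted p of at most 0.05 were called. Of the 246 genes, 163 had enough reads for a test in the nuclear fraction, 162 in the cytoplasm and 161 in both. Of the 83 nuclear genes left untested, 81 had at most 10 reads in every library and 39 had none. Because the lines share the same wild-type libraries, the comparisons are not independent of each other.

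In nuclear RNA of AGO1/2/3 knockout cells, 90 of the 163 tested genes fell and 15 rose, with a median log2 fold change of -0.27. Over all 18919 genes tested, 58.6% were called, 29.5% lower and 29.1% higher, so the share of ZNF genes called (64.4%) was near that of all genes and the split by direction was not. With length-scaled counts 57 ZNF genes were lower and 17 higher (median -0.19), and limma on log2(TPM + 1) gave 102 lower and 5 higher (median -0.38, with the median of all genes moved to -0.16). The AGO1/2 line gave 84 lower and 19 higher (median -0.27, with 34.7% of all genes lower and 32.9% higher, 67.6% called). The AGO2 line gave 70 lower and 14 higher (median -0.20, 40.2% of all genes called, 19.9% lower and 20.2% higher), or 89 lower and 2 higher when limma was run on log2(TPM + 1), where the median of all genes is also moved to -0.17 and that of the ZNF genes is -0.35. In the AGO1 line 23 rose and 13 fell (median 0.04, 29.9% of all genes called, 14.3% higher and 15.6% lower), but limma on log2(TPM + 1) gave 2 higher and 31 lower with a median of -0.14 against -0.17 for all genes, and without passage 7 of the AGO1 line 23 genes were called instead of 36, so the direction in the AGO1 line depends on the scaling.

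Falls outnumbered rises in the cytoplasm too for the lines that lack AGO2. In AGO1/2/3 knockout cells 82 of 162 tested genes fell and 6 rose (median -0.30, 38.7% of all genes called, 20% lower and 18.6% higher), in AGO1/2 knockout cells 73 fell and 6 rose (median -0.24, 49.2% of all genes called, 25.4% lower and 23.9% higher), and in AGO2 knockout cells 51 fell and 3 rose (median -0.21, 16.1% of all genes called, 9% lower and 7.07% higher). The 3 that rose in the AGO2 line were ZNF580, ZNF576 and ZNF233, of which ZNF576 was not called on log2(TPM + 1) (limma adjusted p = 0.903). Without passage 8 of the AGO2 line, 34 genes were called in place of 54. In the AGO1 line 7 rose and 2 fell (ZNF525 and ZNF599), with a median of 0.04 and 12.4% of all genes called, 4.28% higher and 8.13% lower. On log2(TPM + 1) limma gave 3 higher and 17 lower there, with a median of -0.08 for the ZNF genes and for all genes alike. Without passage 6 or passage 7 of the AGO1 line, 3 and 4 genes were called.

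The lines were then set against each other, a contrast that leaves out the wild-type libraries and was added after the data were seen. Between the AGO2 and AGO1 lines, 64 of 163 nuclear genes were lower in the AGO2 line and 4 higher (ZNF580, ZNF525, ZNF233 and ZNF20), with a median of -0.20 and 26.4% of all genes called, 11.6% lower and 14.8% higher. In the cytoplasm 60 were lower and 6 higher (median -0.20, 26.1% of all genes called, 11.6% lower and 14.5% higher). ZNF20 shares most of its transcript stretches with a readthrough gene, which makes its level uncertain. The AGO1/2/3 and AGO1/2 lines differed in 0 nuclear genes by edgeR (22 at an unadjusted p under 0.05, 4 lower by DESeq2 and 4 lower by limma on log2(TPM + 1)), where edgeR called 3.48% of all genes, 1.74% in each direction. They differed in 2 cytoplasmic genes, ZNF432 (-0.91) and ZNF91 (-0.43), where 4.95% were called, 2.48% lower and 2.47% higher. These counts rest on single libraries, since without passage 11 of the AGO1/2 line 13 nuclear and 8 cytoplasmic genes were called, and without passage 9 or 10 of that line, or 11 or 12 of the AGO1/2/3 line, no cytoplasmic gene was.

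The ZNF genes on other chromosomes also had medians below 0 in the lines that lack AGO1 and AGO2, in the nucleus of -0.22 in AGO1/2 and -0.23 in AGO1/2/3 knockout cells, and less in the AGO2 line (-0.05, with 52 of 221 lower and 33 higher). Pooled over the clusters, other coding genes beside the ZNF genes had a nuclear median above 0. Of the 178 other protein-coding genes inside the cluster intervals, 83 were tested in nuclear RNA. In AGO1/2/3 knockout cells 37 of the 83 rose and 13 fell, with a median of 0.31 (29.1% of all genes higher, 29.5% lower). Clusters 2, 8 and 10 held 35, 19 and 17 of these tested neighbours (medians 0.42, 0.35 and 0.18), whereas the few in clusters 3, 6 and 9 had medians of -0.04, -0.17 and -0.24, on the side of the ZNF genes. In the cytoplasm the pooled median was 0.00 (90 tested, 13 higher and 11 lower, with 18.6% of all genes higher and 20% lower). In nuclear AGO1/2/3 knockout RNA, coding genes outside the 246 had medians of -0.01 under 50% GC and 0.26 at or above it. Of the latter 46.8% were higher and 13.6% lower. The difference between the ZNF genes and their neighbours is given as medians and was not tested.

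**Figure D2:**
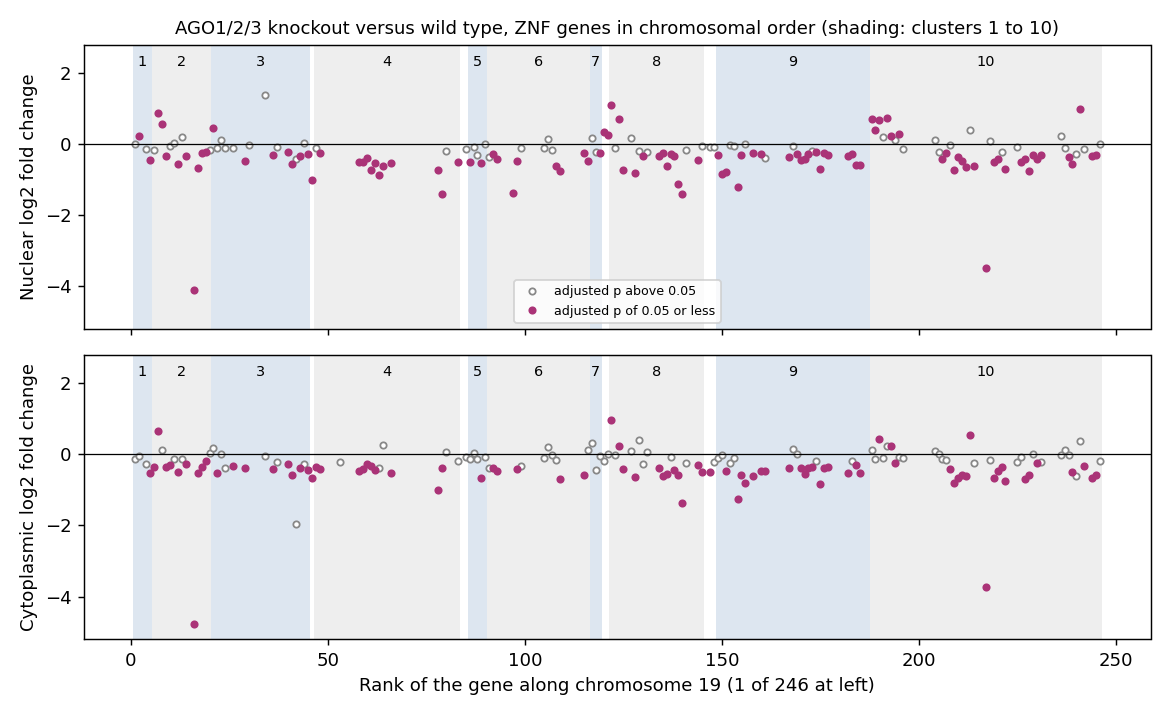
Log2 fold change, AGO1/2/3 knockout against wild type, in nuclear (top) and cytoplasmic (bottom) RNA, of the tested ZNF genes in order along chromosome 19 (rank 1 to 246 on the x axis), with clusters shaded and called genes filled. Most called genes lie below 0 in every large cluster, and the lowest points are ZNF426 in cluster 2 (-4.10 in nuclear RNA) and ZNF550 in cluster 10 (-3.50).

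By cluster, the nuclear median in AGO1/2/3 knockout cells was below 0 in all 10. Cluster 4 beside the centromere had the lowest, -0.52, where all 12 called genes of 14 tested fell, and its summed nuclear TPM stood at 59.2% of wild type in AGO1/2/3 and 59.1% in AGO2 knockout cells. In cluster 9 all 20 called genes of 26 tested fell (median -0.31), as did all 8 of 13 in cluster 6 (median -0.36). Cluster 10 held 21 that fell and 7 that rose of 43 (median -0.26), and cluster 8 11 and 2 of 19 (median -0.27). Cluster 1 (median -0.06, 4 tested) and cluster 3 (median -0.11, 16 tested) were nearest to 0. In the cytoplasm of the same line, cluster 9 (median -0.39, 18 of 26 lower) and cluster 4 (-0.38, 10 of 15 lower) were the lowest of the 10. Within cluster 2, whose other coding genes are numerous, 7 of 14 tested ZNF genes fell and 2 rose in nuclear RNA, while 20 of the 35 other tested coding genes rose and 2 fell (medians -0.20 and 0.42). Over all genes tested in nuclear AGO1/2/3 knockout RNA, 29.1% were higher and 29.5% lower. The cluster medians were set side by side without a test between clusters.

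**Figure D3:**
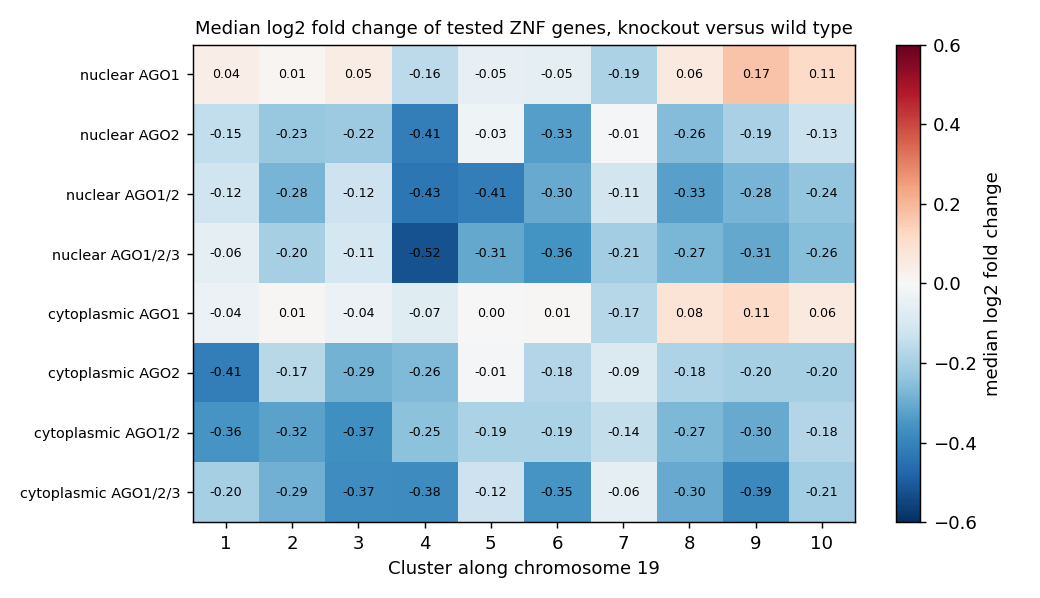
Median log2 fold change (colour and printed value) of the tested ZNF genes of each cluster (x axis, 1 to 10 along the chromosome) for the 4 knockout lines in each fraction. The rows of the AGO2, AGO1/2 and AGO1/2/3 lines are below 0 throughout, with the lowest value of -0.52 in cluster 4 of nuclear AGO1/2/3 knockout RNA, and the AGO1 rows lie on either side of 0.

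ZNF426 and ZNF550 had the largest falls in the lines that lack AGO2. ZNF426 lies in cluster 2 (9523223 to 9538645, minus strand), encodes a KRAB repressor known to inhibit the Rta transactivator of Kaposi's sarcoma-associated herpesvirus, and all its wild-type reads were on coding transcripts. Nuclear ZNF426 was 1.19, 1.33 and 1.30 TPM in wild-type cells and 0.0937, 0.0223 and 0.0887 TPM in AGO1/2/3 knockout cells, a log2 fold change of -4.10 (SE 0.22, edgeR adjusted p = 1.3e-09). The mean fell from 203.3 reads in the shallower wild-type libraries to 18.7. In the AGO2 line it was 0.0867, 0.0354 and 0.0788 TPM (-3.85) and in the AGO1/2 line 0.0917, 0.132 and 0.111 TPM (-3.65). The AGO1 line moved the other way, with 2.42, 2.16 and 2.08 TPM, above all wild-type libraries (1.01, SE 0.16, edgeR adjusted p = 0.000371). Cytoplasmic ZNF426 was at 1.55, 1.30 and 1.16 TPM in wild type and at 1.93 to 2.04 TPM in the AGO1 line (0.80), with log2 fold changes of -4.14, -4.36 and -4.77 in the AGO2, AGO1/2 and AGO1/2/3 lines. The highest of the 18 libraries of these 3 lines, at 0.132 TPM, lay far below the lowest wild-type library.

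ZNF550 lies in cluster 10 (57535257 to 57559863, minus strand). Its nuclear level was 1.15, 1.35 and 1.03 TPM in wild type, 0.256, 0.420 and 0.145 in AGO2 (-2.34), 0.0812, 0 and 0.162 in AGO1/2 (-4.19) and 0.115, 0.0746 and 0.0695 in AGO1/2/3 knockout cells (-3.50, SE 0.46, edgeR adjusted p = 1.08e-05). Without passage 11 of the AGO1/2 line its value there was -5.62. All 9 of these libraries lay below the 3 wild-type libraries, while the AGO1 line held 2.11, 1.39 and 1.35 TPM and was not called (adjusted p = 0.316 in edgeR). Cytoplasmic log2 fold changes were -3.04, -2.83 and -3.74 in the AGO2, AGO1/2 and AGO1/2/3 lines and 0.86 in the AGO1 line (edgeR adjusted p = 0.021), a call that was lost when any of the 3 AGO1 libraries or wild-type passage 28 was left out (adjusted p 0.0535 to 0.0797). The reads of ZNF550 were almost all on transcripts not annotated as coding, with 0% on coding transcripts in nuclear and 7.95% in cytoplasmic wild-type RNA.

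ZNF91, in cluster 4 (23304991 to 23395471, minus strand), is known as a repressor of SVA elements and of some LINE-1 elements. It was at 13.8, 15.1 and 11.7 TPM in wild-type nuclei and at 2.92, 2.40 and 2.13 TPM in AGO2 knockout nuclei (-2.22, SE 0.08, edgeR adjusted p = 1.38e-10). The AGO1/2 line had 4.45, 4.44 and 4.65 TPM (-1.47) and the AGO1/2/3 line 4.42, 4.03 and 4.25 TPM (-1.39), so the AGO2 line was the lowest of the 5. The AGO1 line, at 9.66, 9.19 and 9.10 TPM, was not called (-0.18, edgeR adjusted p = 0.095). In the cytoplasm the wild-type level of 5.09, 5.00 and 4.61 TPM compared with 1.45, 1.39 and 1.48 TPM in the AGO2 line (-1.65, edgeR adjusted p = 1.5e-07), while the AGO1/2 line, at 3.28, 3.79 and 4.03 TPM, lay below wild type in TPM but was not called on reads (0.04, adjusted p = 0.754 in edgeR) and the AGO1/2/3 line fell less (-0.39, edgeR adjusted p = 0.00769).

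ZNF615 of cluster 9 fell in both fractions, with nuclear TPM of 1.80, 1.40 and 1.13 in wild type and 0.459, 0.270 and 0.340 in AGO1/2/3 knockout cells. Its log2 fold changes in the AGO2, AGO1/2 and AGO1/2/3 lines were -1.15, -1.02 and -1.20 in the nucleus and -1.12, -1.20 and -1.27 in the cytoplasm. ZNF235 of cluster 8 fell by 0.73, 1.27 and 1.12 on the log2 scale in the same 3 nuclear comparisons, and 22.4% of its nuclear wild-type reads were on coding transcripts. The abundant ZNF121 went from 96.0, 96.1 and 70.1 TPM to 43.8, 44.3 and 44.6 TPM in AGO1/2/3 knockout nuclei (-0.68, edgeR adjusted p = 1.3e-06) and from 31.3 to 34.6 TPM down to 18.5 to 19.7 TPM in the cytoplasm (-0.53). ZNF146 changed less, with -0.28 in the nucleus (edgeR adjusted p = 0.0104) and -0.40 in the cytoplasm of the AGO1/2/3 line. Cytoplasmic ZNF552 (-0.92 in AGO1/2) and ZNF724 (-0.99 in AGO1/2/3) also fell, and ZNF724 shares 51.9% of its transcript stretches with another gene, so its level is uncertain.

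Few of the tested genes rose. ZNF358 of cluster 2 (7515292 to 7521025, plus strand) was at 2.89, 2.71 and 3.13 TPM in wild-type nuclei and at 4.70, 3.95 and 4.09 TPM in AGO1/2/3 knockout nuclei (0.87, SE 0.13, edgeR adjusted p = 3.85e-05), without overlap. In the AGO1/2 line it reached 5.23, 5.12 and 5.70 TPM (0.88). The cytoplasmic rise of ZNF358 in AGO1/2/3 knockout cells (0.67) was not called on log2(TPM + 1) (limma adjusted p = 0.281), and 18.3% of its transcript stretches are shared with another gene. ZNF784 of cluster 10 (0.74) and ZNF428 of cluster 8 (0.71) also rose in AGO1/2/3 knockout nuclei, with all 3 knockout libraries above all 3 wild-type libraries. ZNF628 of cluster 10 rose by edgeR in the AGO2 (0.85), AGO1/2 (0.78) and AGO1/2/3 (0.70) nuclei, but its TPM of 1.47, 1.38 and 1.36 in the AGO1/2/3 line overlapped the wild-type 1.20, 1.37 and 1.12, and limma on log2(TPM + 1) did not call it there (adjusted p = 0.472) or in the AGO2 line (adjusted p = 0.0764). In the cytoplasm ZNF575 (1.07 and 0.97), ZNF772 (0.81 and 0.55) and ZNF524 (0.42 and 0.44) rose in the AGO1/2 and AGO1/2/3 lines by edgeR, and the calls of ZNF524 in both lines and of ZNF772 in AGO1/2/3 cells were lost on log2(TPM + 1). AGO1 knockout nuclei had higher ZNF296 (0.75) and lower ZNF254 (-0.54) and ZNF525 (-0.77). ZNF525 had 8.32, 8.23 and 5.76 TPM in wild type and 3.52, 3.37 and 2.74 in the AGO1 line, and was lower there in the cytoplasm too (-0.62).

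**Figure D4:**
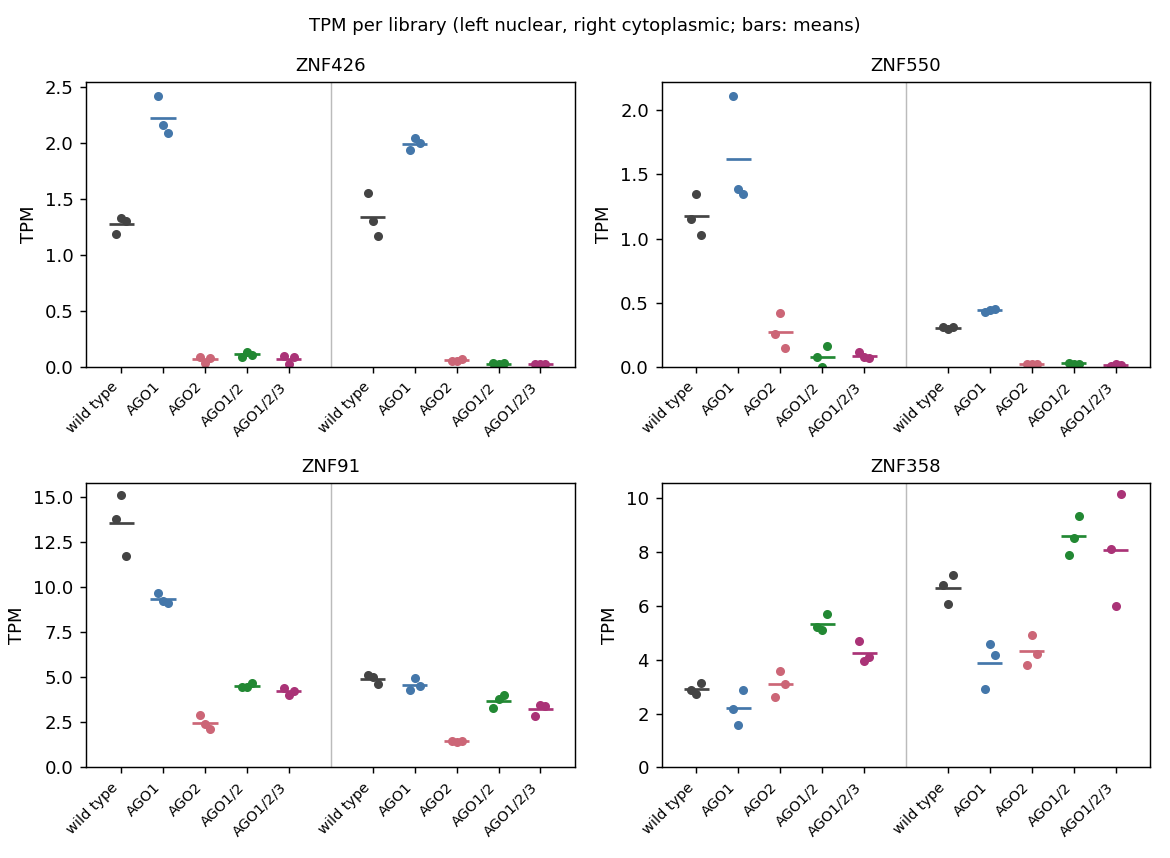
TPM of ZNF426, ZNF550, ZNF91 and ZNF358 in every library, by genotype and fraction, with 1 point per library. ZNF426 and ZNF550 are near 0 in the AGO2, AGO1/2 and AGO1/2/3 lines and at or above wild type in the AGO1 line, nuclear ZNF91 is lowest in the AGO2 line (2.13 to 2.92 TPM), and nuclear ZNF358 is highest in the AGO1/2 line (5.12 to 5.70 TPM).

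The direction of change followed the base composition of the transcripts. Of the 134 tested genes with a transcript GC content under 50%, 87 fell and 1 rose in nuclear AGO1/2/3 knockout RNA (median -0.32), whereas of the 29 at or above 50%, 14 rose and 3 fell (median 0.20). The latter were not alike, since the 6 genes from 50% to 55% and the 4 from 55% to 60% had medians of -0.08 and -0.21 with 1 higher and 3 lower in all, and the rises lay mostly above 60% (5 of 8 genes from 60% to 65%, 5 of 7 from 65% to 70% and 3 of 4 above). Other protein-coding genes under 50% split 33.1% lower and 31.6% higher, and those at or above 50% 13.6% lower and 46.8% higher (medians -0.01 and 0.26). Across genes, Pearson's r between GC content and nuclear log2 fold change was 0.453 (Spearman's rho 0.455) over 163 ZNF genes and 0.225 (rho 0.272) over 13438 other coding genes. Genes share libraries, depth and base composition, and are not independent replicates. The cytoplasm of the same line showed less of this, with 76 lower and 1 higher of 133 under 50% (median -0.36) and 6 lower and 5 higher of 29 above it (median -0.07). As an alternative added after the data were seen, each gene was set against the median of coding genes of like GC content. The nuclear medians were then -0.16, -0.31 and -0.29 in the AGO2, AGO1/2 and AGO1/2/3 lines, against -0.20, -0.27 and -0.27 without this step. The cytoplasmic medians were -0.17, -0.18 and -0.26, against -0.21, -0.24 and -0.30. The part of base composition in the counts was not tested further.

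**Figure D5:**
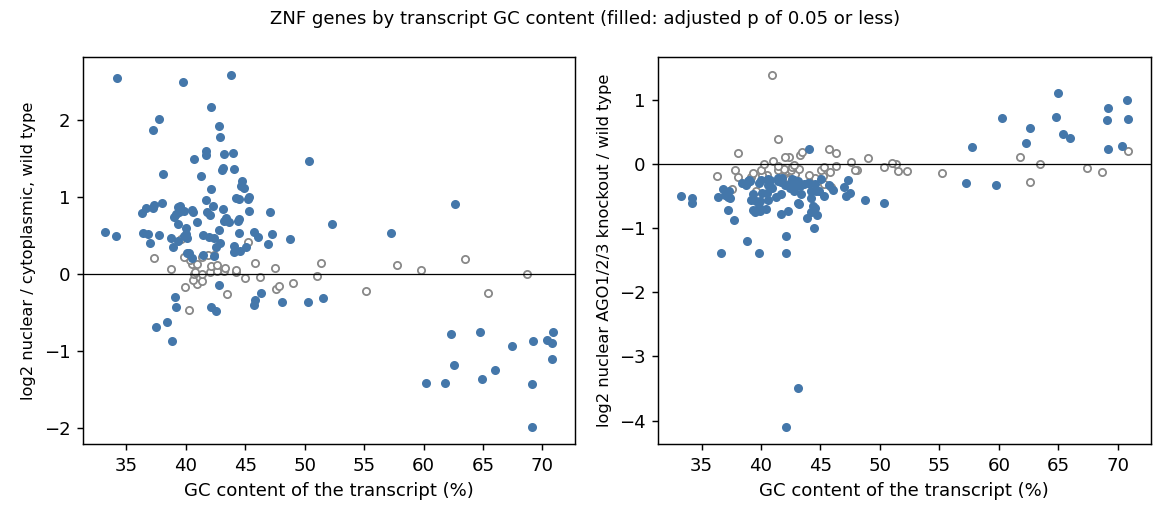
GC content of the transcript (x axis, percent) of each tested ZNF gene against its log2 ratio of nuclear to cytoplasmic RNA in wild type (left) and its log2 fold change in nuclear AGO1/2/3 knockout RNA (right), with called genes filled. Genes above 60% GC are mostly below 0 on the left and above 0 on the right, and the 134 genes under 50% have medians of 0.48 and -0.32.

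Genes were also grouped by their seed matches. In nuclear AGO1/2/3 knockout RNA, 95 tested genes had at least 3 matches to the miR-181a seed, and all 59 that were called fell (median -0.29). Of 23 with 1 to 2 matches 12 fell and 1 rose (-0.26), and of 45 with no match 19 fell and 14 rose (-0.14). For miR-23a, 45 genes had at least 3 matches and all 36 that were called fell (-0.39), against 37 lower and 14 higher of 84 with no match (-0.15). The groups differ in base composition as well. The median GC content was 42.1% in genes with at least 3 miR-181a matches, 42.6% in those with 1 to 2 and 51.5% in those with none. Whether matches and GC content can be separated was not tested. Of the comparison seeds, let-7a matched 14 tested genes, of which 5 fell and 4 rose (-0.10), against 85 lower and 11 higher of 149 with no match (-0.27), and their median GC contents were 50.1% and 42.6%. The miR-17 seed matched 5 tested genes, with 2 lower and 1 higher. In the cytoplasm of the same line, 53 of 93 genes with at least 3 miR-181a matches fell and 1 rose (-0.36), and 15 of 46 with none fell and 5 rose (-0.18). The nuclear AGO2 line did not grade with the number of miR-181a matches. At 3 or more, 44 of 95 genes fell and 2 rose (-0.21), and at 1 to 2, 15 of 23 fell and 0 rose (-0.36). With no match 11 of 45 fell and 12 rose (0.08). In nuclear AGO1/2 knockout RNA the medians were -0.29, -0.28 and -0.10 in this order.

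Nuclear and cytoplasmic RNA of wild-type cells were compared to see where ZNF transcripts reside. Of 163 tested genes, 91 were higher in the nucleus and 29 in the cytoplasm (median log2 ratio 0.39, with 76.8% of all genes called, 39.6% nuclear and 37.3% cytoplasmic). On log2(TPM + 1) limma gave 126 nuclear and 9 cytoplasmic, with a median of 0.59 against 0.29 for all genes. ZNF577 of cluster 9 was at 13.1, 12.7 and 9.92 TPM in the nucleus and at 1.51, 1.29 and 1.15 TPM in the cytoplasm (2.58, SE 0.14, edgeR adjusted p = 1.47e-14). ZNF493 of cluster 4 (2.53), ZNF235 (2.16) and ZNF738 of cluster 4 (2.01) were the next by the same rule, and 25.4% of the ZNF738 transcript stretches are shared with another gene. On the cytoplasmic side stood ZNF358 (-1.98), ZNF524 (-1.42), ZNF428 (-1.41) and ZNF581 (-1.41). ZNF358 was at 2.89, 2.71 and 3.13 TPM in the nucleus and 6.78, 6.06 and 7.14 TPM in the cytoplasm, without overlap. Under 50% GC, 87 of 134 genes were nuclear and 12 cytoplasmic (median 0.48), and at or above 50% 4 of 29 were nuclear and 17 cytoplasmic (-0.74), while other coding genes had medians of -0.19 and -0.41. Coding transcripts held 88.9% of the ZNF reads in wild-type nuclei and 95.0% in the cytoplasm, and transcripts annotated with a retained intron 6.82% and 0.792%. In nuclei the retained-intron share was 6.82 ± 0.66% in wild type (SD, n = 3 for each line), 6.43 ± 0.09% in AGO1 and 5.85 ± 0.14% in AGO2 knockout cells. It was 4.69 ± 0.33% in AGO1/2 and 5.65 ± 0.23% in AGO1/2/3 knockout nuclei, and these shares were not tested. In AGO1/2/3 knockout cells 88 genes were nuclear and 24 cytoplasmic (median 0.32, 70.2% of all genes called, 36.1% nuclear and 34.1% cytoplasmic), or 134 and 7 on log2(TPM + 1).

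Whether the difference between a knockout line and wild type was unlike in the fractions was tested as an interaction. Nuclear KRT8 and MALAT1 also moved in the AGO1/2 and AGO1/2/3 lines, as given above. Their shifts were not accounted for, and a change in the nuclear preparations cannot be told apart from one in the cells. For AGO1/2/3, 20 of 163 genes were called (22.7% of all genes, 11.1% lower and 11.7% higher), 16 with a lower value in the nucleus relative to the cytoplasm and 4 with a higher one (ZNF627, ZNF428, ZNF579 and ZNF574). Without nuclear or without cytoplasmic passage 14 of the AGO1/2/3 line 12 were called, with length-scaled counts 8 were lower and 7 higher, and on coding transcripts alone all 30 called were lower. With passage as a replicate block, 38 were called (27 lower and 11 higher). ZNF91 had the largest difference, -1.08 (SE 0.14, edgeR adjusted p = 4.48e-06), from the joint fit of both fractions, and in the separate fits of each fraction it fell by 1.39 in the nucleus and by 0.39 in the cytoplasm. ZNF493 (-0.96) and ZNF577 (-0.91) fell in nuclear RNA (-0.61 and -0.84) and were not called in the cytoplasm (0.27 and -0.01). With ZNF235 (-0.62) and ZNF738 (-0.58), all genes named above as nuclear in wild type were among those lower. Of those named as cytoplasmic, only ZNF428 was called, and it was higher. The interaction and the wild-type comparison of fractions use the same wild-type libraries. For AGO1/2, 43 genes were called (36.5% of all genes, 17% lower and 19.6% higher), 29 lower and 14 higher in the nucleus, but limma on log2(TPM + 1) gave 12 lower and 57 higher, so the direction rests on the scaling. In the AGO2 line 2 genes were called, ZNF875 and ZNF91 (5.76% of all genes called, 3.13% lower and 2.63% higher).

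The proteins with which KRAB zinc finger proteins act were examined as a list of 24 cofactors, chosen by textbook role. In nuclear AGO1/2/3 knockout RNA 9 rose and 2 fell, where 29.1% of all genes were higher and 29.5% lower. TRIM28, the corepressor that the KRAB domain binds, was not called there (0.22, edgeR adjusted p = 0.0576) but fell in the cytoplasm (-0.50, edgeR adjusted p = 0.00284), and SETDB1, which methylates histone H3 at lysine 9, was not called (0.10, edgeR adjusted p = 0.0734). The histone deacetylase HDAC1 (0.75) and SUMO2 (0.65) had the largest rises and the remodeller CHD3 (-0.72) and the HUSH subunit PPHLN1 (-0.41) the falls. In the nuclei of the AGO1, AGO2 and AGO1/2 lines 10, 11 and 13 cofactors rose and 1, 2 and 5 fell, with 14.3%, 20.2% and 32.9% of all genes higher and 15.6%, 19.9% and 34.7% lower. In the cytoplasm 1 rose and 6 fell in AGO1/2/3 knockout cells (18.6% of all genes higher and 20% lower), and 1 rose and 11 fell in AGO1/2 knockout cells (23.9% and 25.4%). The cytoplasm of the AGO1 line had 2 higher and 1 lower (4.28% and 8.13% of all genes) and that of the AGO2 line 1 lower (9%).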

How the data were processed

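Ribosomal RNA was depleted (Ribo-Zero) before stranded total RNA library preparation and NextSeq 500 sequencing, and the authors, per the submitters' processing notes, used STAR 2.5.3a (hg38) and Salmon 0.11.0. The deposited expected counts are Salmon's estimates of the reads of each transcript and are not normalized. The deposited TPM values divide these reads by effective transcript length and scale each library to a fixed total. The annotation release the authors used could not be matched, so transcripts were matched by identifier to GENCODE release 44, and unmatched transcripts held 2.23% to 4.01% of reads. The 8 samples without RNA-seq tables were not analysed here.

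Expected counts were summed per gene and rounded. edgeR 4.0.16 in R 4.3.3 (quasi-likelihood, TMM, filterByExpr with a minimum count of 10) was fitted over the 5 genotypes of a fraction, or over all 30 libraries for fractions and interactions, with calls at an adjusted p (Benjamini-Hochberg) of 0.05. Alternatives used DESeq2 1.42.0, limma 3.58.1 on log2(TPM + 1) or log2(TPM + 0.1), RLE factors, length-scaled counts, other filters, thinned reads, coding transcripts alone, 2 groups alone and each library left out. Summaries and figures used Python 3.11.15, pandas 2.3.3 and matplotlib 3.10.9. The scripts were tested on simulated data. At 3 libraries per group the spread between passages limits precision, and for weak genes counting error does too.

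Genes named were the 8 with the highest nuclear wild-type TPM, the leader of each cluster, the called genes with the largest change per comparison whose libraries did not overlap in CPM and whose higher group averaged at least 50 reads (4 per direction for AGO1/2, AGO1/2/3 and wild-type fractions, 2 for AGO1 and AGO2), the 3 of each direction for the AGO1/2/3 interaction, and TRIM28, SETDB1 and the 2 largest changes per direction among cofactors. Genes named to complete a count of 5 or fewer were chosen after their values were seen. The members and lists were chosen with earlier results of these data known. In wild-type cells the fractions of 1 passage deviated together (r = 0.35, 0.35 and 0.65). Passages 27 and 28 crossed gave 0.36 and 0.37, so the wild-type pairing rests on passage 29. Pairs of 1 passage gave 0.26, 0.04 and 0.23 in the AGO1 line and 0.19, 0.04 and 0.18 in AGO2. They gave 0.06, 0.37 and 0.50 in AGO1/2 and 0.004, 0.16 and 0.07 in AGO1/2/3. Crossed pairs reached at most 0.03, 0.0002, 0.10 and 0.05 in these lines in turn. The main fits did not use the pairing. Knockout and wild-type passages share no number.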

Additional observations from a re-analysis of the deposited data

Results flagged for a closer look

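The difference between a knockout line and wild type was compared between nucleus and cytoplasm as an interaction. The nuclear shifts of KRT8 and MALAT1 in the AGO1/2 and AGO1/2/3 lines were not accounted for. Of 163 tested ZNF genes of chromosome 19, 43 were called for AGO1/2 and 20 for AGO1/2/3. Over all genes 36.5% and 22.7% were called, larger shares than among the ZNF genes. In the AGO1/2/3 line the named differences, nuclear minus cytoplasmic log2 fold change, were -1.08 for ZNF91, -0.96 for ZNF493 and -0.91 for ZNF577, and 0.45 for ZNF574, 0.44 for ZNF579 and 0.38 for ZNF428. The call of ZNF579 was lost without any 1 of 8 libraries (edgeR adjusted p 0.0513 to 0.135), and that of ZNF428 without cytoplasmic wild-type passage 29 or nuclear AGO1/2/3 passage 14 (edgeR adjusted p = 0.0552 and 0.0572).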

How the results depend on the processing

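Of the alternatives to the counts of called ZNF genes and to the sums, 268 stayed within 1.5 times the reported count or 1 SD of the sum, 40 moved further and 2 sums changed sign. Counts were judged by their total, and the higher and lower parts turned on log2(TPM + 1) for nuclear AGO1 (2 higher and 31 lower), cytoplasmic AGO1 (3 and 17) and the AGO1/2 interaction, with length-scaled counts for cytoplasmic AGO1 (4 and 5) and the AGO1/2 interaction, on coding transcripts for nuclear AGO1 (12 and 16) and without a filter for the interactions (AGO1/2 19 and 12, AGO1/2/3 7 and 4). For the 25 named genes, 950 alternatives kept the call and direction, 59 lost the call and none turned. With each library left out in turn, nuclear counts ran from 23 to 38 for AGO1, 65 to 89 for AGO2, 83 to 110 for AGO1/2 and 87 to 112 for AGO1/2/3, and cytoplasmic counts, in this order, from 3 to 10, 34 to 57, 71 to 100 and 69 to 100. Counts between fractions ran from 114 to 122 in wild type and 105 to 107 in AGO1/2/3 cells, and interaction counts from 38 to 47 (AGO1/2) and 12 to 28 (AGO1/2/3). Log2 ratios of summed TPM then ran from -0.299 to -0.157, -0.555 to -0.412, -0.453 to -0.31 and -0.651 to -0.509 in the nucleus and from -0.18 to -0.0913, -0.441 to -0.352, -0.712 to -0.623 and -0.578 to -0.489 in the cytoplasm. Sums of reads scaled by library in place of TPM gave 0.029, -0.20 and -0.34 for nuclear AGO1 (turned), AGO2 and AGO1/2/3, and 0.039 (turned), -0.17, -0.26 and -0.29 for the 4 cytoplasmic lines. An absolute log2 fold change of at least 1, which few genes reach by construction, left 1, 8, 9 and 9 nuclear and 0, 6, 4 and 4 cytoplasmic genes, 32 (wild type) and 22 (AGO1/2/3) between fractions, and 2 and 1 for the interactions. A fit on the 2 groups alone, with fewer samples, called 20 (nuclear AGO1), 3 (cytoplasmic AGO1) and 25 (cytoplasmic AGO2). Cytoplasmic AGO1 gave 14 with DESeq2, 14 with limma on log2(TPM + 0.1), 20 on log2(TPM + 1) and 5 with thinned reads. On log2(TPM + 0.1) and log2(TPM + 1), limma called 89 and 96 for cytoplasmic AGO2, 130 and 131 for cytoplasmic AGO1/2, where the median of all genes moved to -0.36 and -0.20, and 71 (65 higher) and 69 (57 higher) for the AGO1/2 interaction. The AGO1/2 interaction was 7 higher and 38 lower with RLE factors, 20 and 17 with length-scaled counts and 2 and 41 on coding transcripts. The AGO1/2/3 interaction gave 13 on log2(TPM + 0.1), 34 at a mean of at least 50 reads and 11 without a filter. With passage as a replicate block it gave 38, against 57 for AGO1/2, and 125 and 118 genes differed between fractions in wild type and AGO1/2/3 cells. Where not named above, the cause of a change was not tested. Knockout and wild-type libraries share no passage, so no block could be fitted between them. Centring on coding genes of like GC content, chosen after seeing the data, raised the wild-type nuclear median from 0.39 to 0.57. The call of ZNF576 (cytoplasmic AGO2) was lost without any 1 AGO2 library or wild-type passage 29 (edgeR adjusted p 0.0636 to 0.119), and that of ZNF615 (cytoplasmic AGO1/2) was lost on coding transcripts (adjusted p = 0.134 in edgeR). Genes under the read minimum, 83 in nuclear RNA, could not be followed at this depth.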
